A study of Homo sapiens with 8 samples.

Results

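The cytoplasmic ribosomal protein genes were taken as all genes of the expression table whose symbol was RPL or RPS followed by a number, with an optional A, X or L and number, together with RPLP0, RPLP1, RPLP2 and RPSA. This rule, which used names and no measured value, found 82 of the 13771 genes in the table. They comprised 43 genes of the large subunit, 31 of the small subunit, 3 of the stalk (RPLP0, RPLP1 and RPLP2) and 5 paralogs with their own genes (RPL7L1, RPL22L1, RPL26L1, RPL39L and RPS27L). All 82 had been kept by the authors' filter on low values, and the least expressed, RPL39L, had a mean of 22.9 CPM (read counts scaled to the library size). FAU and RPL36AL also encode or are related to ribosomal proteins but lay outside the rule. RNA-seq had been done on MCF10A, a non-tumorigenic human breast epithelial line, and DCIS.COM, a line of the same lineage that models ductal carcinoma in situ (DCIS). Both were stably transduced with the lentiviral vector pCDH-HOTAIR, which expresses the long non-coding RNA HOTAIR, or with pCDH-empty, and selected with puromycin. Each of the 4 groups had 2 libraries, and nothing in the labels says whether the replicates came from separate transductions, so that p-values measure the spread between these libraries only. MCF10A was grown with horse serum, epidermal growth factor, hydrocortisone, insulin and cholera toxin and DCIS.COM with horse serum alone, so that cell line and medium cannot be told apart.

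The ribosome of the cytoplasm has a small subunit, which reads the messenger RNA, and a large subunit, which joins the amino acids, and nearly every ribosomal protein is needed in a single copy per particle. Vertebrate ribosomal protein genes are mostly single active genes with many silent processed copies in the genome. Their transcripts typically begin with a C followed by a run of pyrimidines, the terminal oligopyrimidine (TOP) motif, through which the mTORC1 pathway and LARP1 control their translation together. A few have paralogs that can take the place of the canonical protein in some ribosomes. The comparisons addressed whether HOTAIR changed the transcripts of this machinery in each line, and how far they differed between the lines.

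The start of the transcript was read for the members found in the RefSeq promoter table (GRCh38.p14). Of 82 members, 66 had an entry, and 47 of these (71.2%) had a start at which an unbroken run of at least 5 bases of C and T, opening with C, began at the first transcribed base. The same run was found for 722 of the other 10426 genes of the expression table with an entry (6.92%) and for 4.07% of all 35116 starts. It was present in 25 of 35 large-subunit genes, 18 of 24 small-subunit genes, all 3 stalk genes and 1 of 4 paralogs. The windows below are shown for the paralog pairs and for genes that differed between the lines. Each runs from 15 bases before to 15 bases from the start in the sense direction, and capitals mark the C/T run at the start.
RPL22 (chr1:6199581-6199610, minus strand): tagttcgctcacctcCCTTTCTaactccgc
RPL22L1 (chr3:170870181-170870210, minus strand): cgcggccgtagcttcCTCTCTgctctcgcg
RPS27 (chr1:153990747-153990776, plus strand): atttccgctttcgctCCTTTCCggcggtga
RPS27L (chr15:63157463-63157492, minus strand): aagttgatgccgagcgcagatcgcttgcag
RPL26 (chr17:8383179-8383208, minus strand): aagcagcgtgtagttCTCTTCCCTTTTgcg
RPL26L1 (chr5:172958714-172958743, plus strand): agtcttccaggggtcggcgaacgaaacgcg
RPL39 (chrX:119791616-119791645, minus strand): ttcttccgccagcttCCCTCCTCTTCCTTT
RPL7L1 (chr6:42879601-42879630, plus strand): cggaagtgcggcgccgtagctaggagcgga
RPL24 (chr3:101686704-101686733, minus strand): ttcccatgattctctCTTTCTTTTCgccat
RPS16 (chr19:39435935-39435964, minus strand): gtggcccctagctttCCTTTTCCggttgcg
RPS6 (chr9:19380222-19380251, minus strand): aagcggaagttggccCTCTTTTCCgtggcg
RPLP1 (chr15:69452803-69452832, plus strand): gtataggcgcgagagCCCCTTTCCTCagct
RPL35A (chr3:197950175-197950204, plus strand): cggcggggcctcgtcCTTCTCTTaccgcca
RPS29 (chr14:49598696-49598725, minus strand): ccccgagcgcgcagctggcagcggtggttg
RPL26L1 had a second listed start, also without the run, and RPL39L and RPL7 had no entry. RPL22L1 was thus the paralog whose start carried the run of its partner gene, while the listed starts of RPS27L, RPL26L1 and RPL7L1 did not carry it. RefSeq lists the start of RPS29 at a base without the run, which says only that these letters are not in this window.

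Recovered read totals ran from 19306864 to 34884841 per library, and each member had at least 284 reads in each library. The overexpressed transcript, HOTAIR, was counted 45 and 40 times with pCDH-empty against 4614 and 4827 times with pCDH-HOTAIR in MCF10A, and 119 and 140 against 7166 and 6385 times in DCIS.COM, as the vector labels say. All 10 basal epithelial markers were present, with summed levels of 16121 to 17962 CPM in MCF10A and 4548 to 5139 CPM in DCIS.COM. Luminal markers (9 of 10 present) summed to 1336 to 1408 CPM in MCF10A and 4852 to 6198 CPM in DCIS.COM. Single markers did not all follow these sums. In DCIS.COM over MCF10A with pCDH-empty, 2 basal markers were called higher and 7 lower, and 7 luminal markers higher and 1 lower. Calls were made at an adjusted p under 0.05 (limma) and a 1.5-fold change. By this rule 22.5% of all genes were higher and 23.8% lower. Of 10 fibroblast markers 4 were in the table (101 to 116 CPM with pCDH-empty and 126 to 146 CPM with pCDH-HOTAIR in MCF10A, 1.92 to 3.24 CPM in DCIS.COM), and of 10 leukocyte and endothelial markers 3 (at most 49.3 CPM in MCF10A and 20.1 CPM in DCIS.COM). The part of these differences in the results below was not tested. One library, DCIS.COM pCDH-empty 1, stood apart from the other DCIS.COM libraries. The signal recognition particle RNA genes took 18.9% of its reads, the highest of the 8 libraries (11.1% in the lowest), and 54 of 82 ribosomal protein genes lay above and 21 below the range of the other 3 DCIS.COM libraries, against 39.2% and 38.5% of all genes. Its difference from the mean of these 3 libraries had a median of 0.25 (log2) in the 20 members with the highest GC content and -0.07 in the 20 with the lowest. Across the 82 members the Spearman correlation of this difference with GC content was 0.43, and across all 13148 genes with a known GC content it was 0.51. The main counts that include this library, and the calls of named genes that changed without it, are also given below with it left out.

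Ribosomal protein transcripts took between 5.46% and 6.07% of the reads in every library. The share was 5.55% and 5.46% in MCF10A pCDH-empty and 5.81% and 5.92% in MCF10A pCDH-HOTAIR. In DCIS.COM the share was 5.95% and 5.92% with pCDH-empty and 6.07% and 6.07% with pCDH-HOTAIR. The lowest library was thus MCF10A pCDH-empty 2 and the highest were both DCIS.COM pCDH-HOTAIR libraries, and in each line the pCDH-HOTAIR libraries lay above the pCDH-empty libraries. Once the small structural RNA genes were left out of the total, the shares were 6.79% and 6.56%, 6.87% and 6.87%, 7.69% and 7.04%, and 7.36% and 7.33% in the same order, and the vectors overlapped in DCIS.COM. The reads of the large subunit exceeded those of the small subunit by a ratio of at least 1.47 in each of the 4 MCF10A libraries and of 1.34 to 1.37 in the 4 DCIS.COM libraries, without overlap between the lines. The small subunit took 2.07% to 2.22% of reads in MCF10A and 2.36% to 2.44% in DCIS.COM, whereas the values of the large subunit overlapped (3.05% to 3.33% against 3.21% to 3.28%). These sums have no test because the members were chosen as a list.

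**Figure D1:**
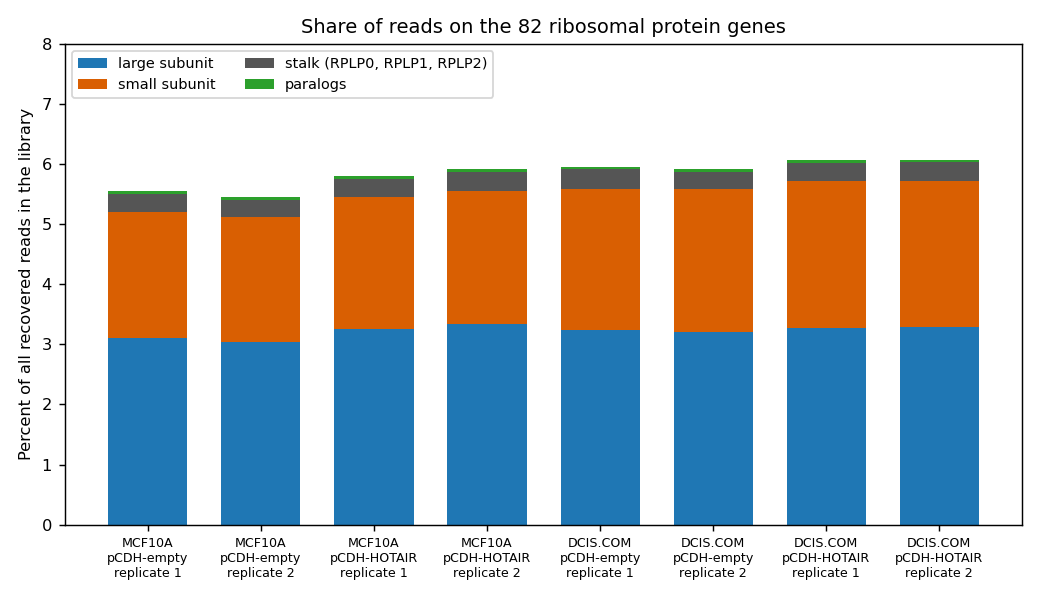
Share of all recovered reads (percent, vertical axis) on the 82 ribosomal protein genes in each of the 8 libraries (horizontal axis), stacked by large subunit, small subunit, stalk and paralogs. Total heights run from 5.46% to 6.07%, and the paralogs form a thin band of under 0.06% in each library.

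Levels per length differed widely among the members, although nearly every ribosomal protein is needed in a single copy per particle. The median member had 899 CPM per kilobase of transcript (the quartiles were 571 and 1176), against 8.48 for all genes with a known length. In the large subunit the highest levels were those of RPL41, the smallest ribosomal protein (2221 CPM per kilobase, 2016 to 2445 over the 8 libraries), RPL7A (1647) and RPL12 (1613). RPL14 (72.8), RPL22 (178) and RPL10 (394) were lowest there. The small subunit was led by RPS18 (1852), RPS27 (1798) and RPS2 (1765), and RPS28 (165), RPS26 (258) and RPS29 (392) were lowest. In the stalk, the scaffold protein gene RPLP0 had 1866 CPM per kilobase, RPLP1 had 1567 and RPLP2 had 695. The paralogs RPL7L1, RPL39L and RPL26L1 were the lowest of all 82. The order depends on the transcript length assigned to each gene: ranks by coding length instead of transcript length had a Spearman correlation of 0.74 with these, and RPS29 moved from rank 73 to rank 30. RPL14 stayed low at rank 75 by coding length, but its assigned transcript length was 7072 bases and its coding length 645. Per coding kilobase it had 798 CPM, against 1845 for RPL12, so the size of its gap depends on the length used. GENCODE lists 1598 pseudogenes of members, and 78 of the 82 have at least 1, so that reads could have been shared with near-identical copies, and the sources used here do not state how such reads were counted. The levels of single members are uncertain to this extent.

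HOTAIR overexpression changed no ribosomal protein gene past the thresholds in either line. With limma on the deposited log2 CPM, 0 of 82 members passed an adjusted p of 0.05 and a fold change of 1.5 in MCF10A, where 0.0218% of all genes were called, and 0 of 82 in DCIS.COM, where 0.0871% were called. Without the fold threshold the count was also 0 in both lines (0.0218% and 0.0944% of all genes). At an unadjusted p under 0.05 there were 0 members in MCF10A (7.28% of all genes) and 4 in DCIS.COM (17.5%), of which 3 were higher (9.08% of all genes) and 1 lower (8.41%). The spread of each gene was pooled over the 4 groups, so that the MCF10A counts and all-gene shares also depend on the DCIS.COM libraries. The members' median difference between replicates was 0.17 (log2) in DCIS.COM pCDH-empty, 0.03 in MCF10A pCDH-empty and 0.05 in MCF10A pCDH-HOTAIR. The 95% intervals used the same pooled spread and were narrow, with a median half-width of 0.18 on the log2 scale. They lay inside a 1.5-fold change either way for 81 members in MCF10A, RPS16 being the exception, and for 80 in DCIS.COM, where RPL22L1 and RPS27L were the exceptions.

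The HOTAIR differences were small in both lines. In MCF10A the median log2 fold change of HOTAIR over empty vector was 0.05, with 69 of 82 members above 0 (47.7% of all genes were). The median was -0.01 for all genes and 0.03 for the 154 genes of similar level, which include members. Of these 154 genes, 96 were above 0. The 4 fibroblast markers in the table were also all above 0 in MCF10A (median 0.76, 3 with an unadjusted p under 0.05 and 0 called by limma), and their part in the members' difference was not tested. Both pCDH-HOTAIR libraries lay above both pCDH-empty libraries for 49 members, or 59.8% (22.5% of all genes), and below them for 4 members (24.8% of all genes). In DCIS.COM the median was -0.01, with 37 of 82 members above 0 (52% of all genes), and the libraries did not overlap for 22 members that were higher (24.7% of all genes) and 3 that were lower (24.5%). Large-subunit genes had medians of 0.06 in MCF10A and -0.02 in DCIS.COM, and small-subunit genes of 0.05 and 0.01. The median in MCF10A stayed between 0.02 and 0.07 under all scalings tried and with any library left out. That of DCIS.COM changed sign with the scaling and was 0.06 without DCIS.COM pCDH-empty 1 and -0.09 without DCIS.COM pCDH-empty 2.

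The highest and lowest HOTAIR differences, none of which passed the test, were those of RPS16, RPL7L1 and RPL22L1. RPS16, a protein of the small-subunit head, had log2 CPM values of 8.00 and 8.24 in MCF10A pCDH-empty and 8.41 and 8.40 in MCF10A pCDH-HOTAIR. Both pCDH-HOTAIR libraries lay above both controls, and the difference of 0.28 ± 0.20 (SE, n = 2 per group) was the highest in MCF10A but did not pass the test (adjusted p = 0.868, limma). This SE was pooled over the 4 groups and so also reflects the spread between the DCIS.COM replicates of RPS16. RPL7L1, a paralog of RPL7, had values of 6.62 and 6.56 against 6.42 and 6.45 in MCF10A and of 6.75 and 6.58 against 6.37 and 6.47 in DCIS.COM. Its pCDH-HOTAIR libraries lay below the controls in both lines, with differences of -0.16 ± 0.08 (limma adjusted p = 0.757) and -0.24 ± 0.08 (adjusted p = 0.237), the lowest of the 82 genes in each line. After RPL7L1, the genes RPS2, RPL12 and RPL37 had the smallest p-values in MCF10A, with log2 fold changes of 0.17, 0.12 and 0.10. RPS21 and RPS3A, both of the small subunit, were among those in DCIS.COM, with 0.20 and 0.15. For RPL22L1 in DCIS.COM the values were 6.52 and 7.14 with pCDH-empty and 7.29 and 7.26 with pCDH-HOTAIR, a difference of 0.44 ± 0.18 (adjusted p = 0.276, limma). The RPS27L values were 6.42 and 7.02 against 7.01 and 7.08, with overlap (0.33 ± 0.16, adjusted p = 0.318). In both genes the low value was that of DCIS.COM pCDH-empty 1. Without that library 0 members were called, and the RPL22L1 difference was 0.13. Without DCIS.COM pCDH-empty 2, RPL22L1 (0.75) and RPS27L (0.63) were called, in a fit that called 10.2% of all genes and assumed that the lone library varied like the other groups.

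**Figure D2:**
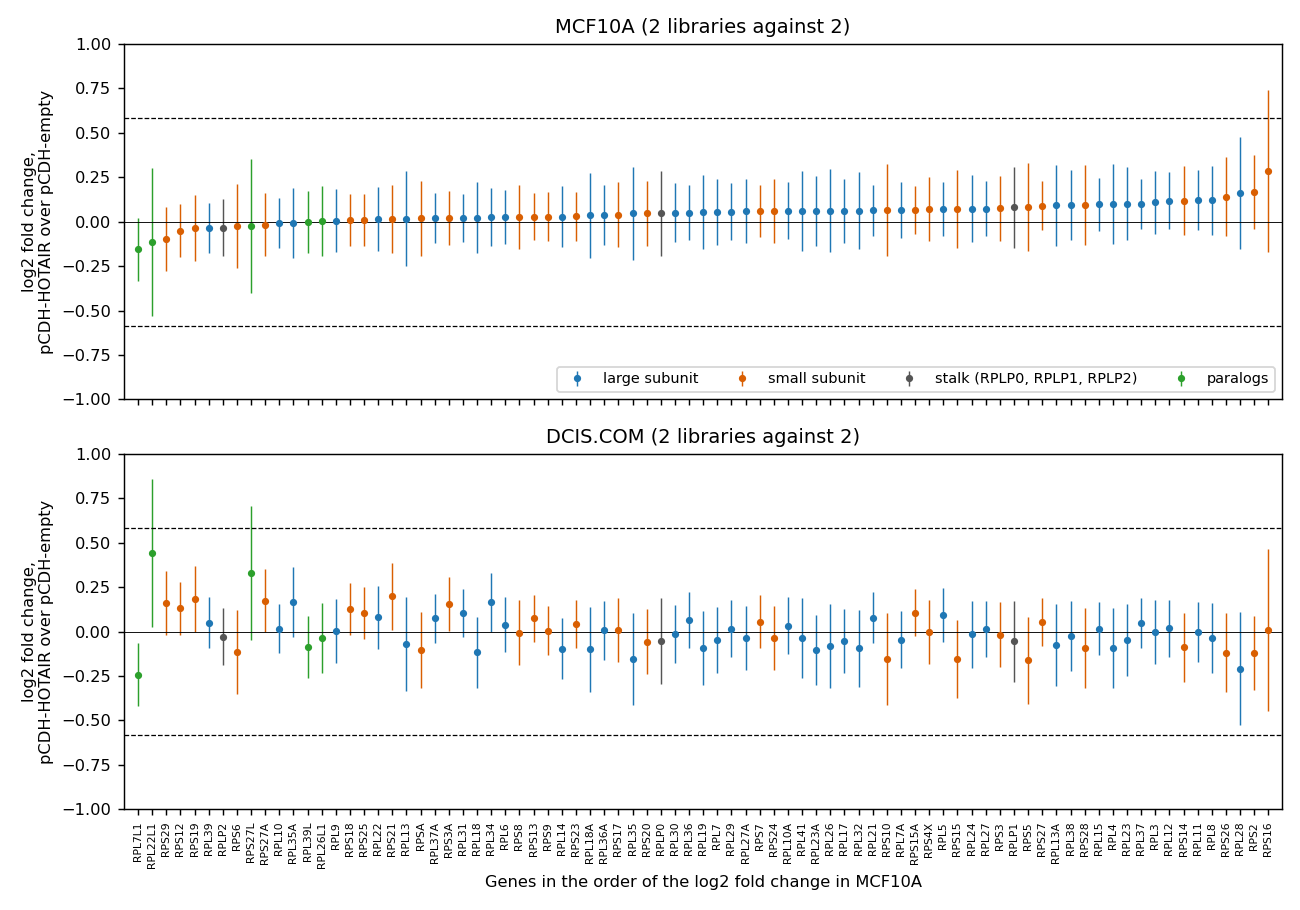
Log2 fold change of pCDH-HOTAIR over pCDH-empty (vertical axis) for 81 of the 82 genes in MCF10A (upper panel) and DCIS.COM (lower panel), both in the order of the MCF10A values, with 95% intervals from limma as bars and a 1.5-fold change as dashed lines. No point lies outside the dashed lines, and the bars that cross them belong to RPS16 in MCF10A and to RPL22L1 and RPS27L in DCIS.COM.

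The HOTAIR effect was compared between the lines by the interaction. None of the 82 members passed an adjusted p of 0.05 in limma (0.0436% of all genes did), and 1 member, RPS29, had an unadjusted p under 0.05 (10.5% of all genes). RPS29, a small zinc-binding protein of the small subunit, differed by -0.10 in MCF10A and 0.16 in DCIS.COM, an interaction of 0.26 ± 0.11 (SE, adjusted p = 0.472). The interactions of RPS2 (-0.29, adjusted p = 0.474) and RPL22L1 (0.56, adjusted p = 0.485) had the next smallest p-values. The count of 0 held when any library was left out, with the exception of DCIS.COM pCDH-empty 2. Without that library 43 members and 32.1% of all genes passed, the DCIS.COM control then being the single library that stood apart.

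Between the lines, 13 ribosomal protein genes were called in the pCDH-empty libraries and 7 in the pCDH-HOTAIR libraries. In the pCDH-empty libraries, 10 members were higher and 3 lower in DCIS.COM than in MCF10A at an adjusted p under 0.05 and a fold change of 1.5, which makes 15.9% of the 82 against 46.3% of all genes (22.5% higher and 23.8% lower). Without the fold threshold, 27 members were higher (33.8% of all genes) and 15 lower (34.4%), or 51.2% against 68.2%. The median size of the difference, regardless of direction, was 0.18 (log2) for the members, 0.54 for all genes and 0.33 for the 154 genes of similar level, which include members. In the pCDH-HOTAIR libraries, which share no library with the former, 6 members were higher and 1 lower (8.54% against 43.7% of all genes, of which 22% higher and 21.7% lower). Without the fold threshold these were 20 and 10 (36.6% against 65.5%, with 32.8% and 32.7% of all genes). In these bulk samples a change in the RNA per cell cannot be told apart from a change in the make-up of the culture. The same 4 members were higher in both vectors (RPL24, RPS16, RPL26L1 and RPL39L) and the same 1 was lower (RPL8), where 18.8% and 19.6% of all genes were called in both. All 4 DCIS.COM libraries lay above all 4 MCF10A libraries for 28 members (34.6% of all genes) and below them for 17 (35.6%). As a description over 82 genes that share these libraries' depth and composition, the differences in the pCDH-empty and pCDH-HOTAIR libraries had a Pearson correlation of 0.92 and a Spearman correlation of 0.90, and 64 (78.0%) had the same sign. Over all genes the Pearson correlation was 0.98 and 88.7% had the same sign. The members as a whole moved in no common direction: the median difference was 0.04 with pCDH-empty and -0.03 with pCDH-HOTAIR.

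The calls are given by role, and the roles were not tested against each other. Of the 43 large-subunit genes, 3 were called higher and 1 lower in the pCDH-empty libraries, and 12 and 6 passed an adjusted p of 0.05. Of the 31 small-subunit genes, 4 were called, each of them higher, and 12 higher and 7 lower passed without the fold threshold. Their medians were 0.02 and 0.13. Among the stalk genes RPLP1 was called, and RPLP0 (-0.05) and RPLP2 (-0.11) were not. Of the 5 paralogs, 4 were called, 2 higher and 2 lower. In these libraries 46.3% of all genes were called (22.5% higher and 23.8% lower), and 68.2% passed an adjusted p of 0.05. With pCDH-HOTAIR the called genes were 3 of the 43 large-subunit genes (1 of them lower), 2 of the 31 small-subunit genes, 0 of the 3 stalk genes (1 had an unadjusted p under 0.05, limma) and 2 of the 5 paralogs, where 43.7% of all genes were called. When DCIS.COM pCDH-empty 1 was left out of the pCDH-empty comparison, 4 large-subunit genes (1 of them lower), 0 small-subunit genes (24 had an unadjusted p under 0.05, limma), 0 stalk genes (3 at that p) and 3 paralogs were called, with medians of -0.07 for the large and 0.08 for the small subunit. Among the genes that were no paralogs, those with the C/T run at the start had a median of 0.04 over 46 genes, those without it 0.14 over 16 and those with no entry 0.01 over 15. With pCDH-HOTAIR these medians were -0.02, 0.00013 and -0.11.

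**Figure D3:**
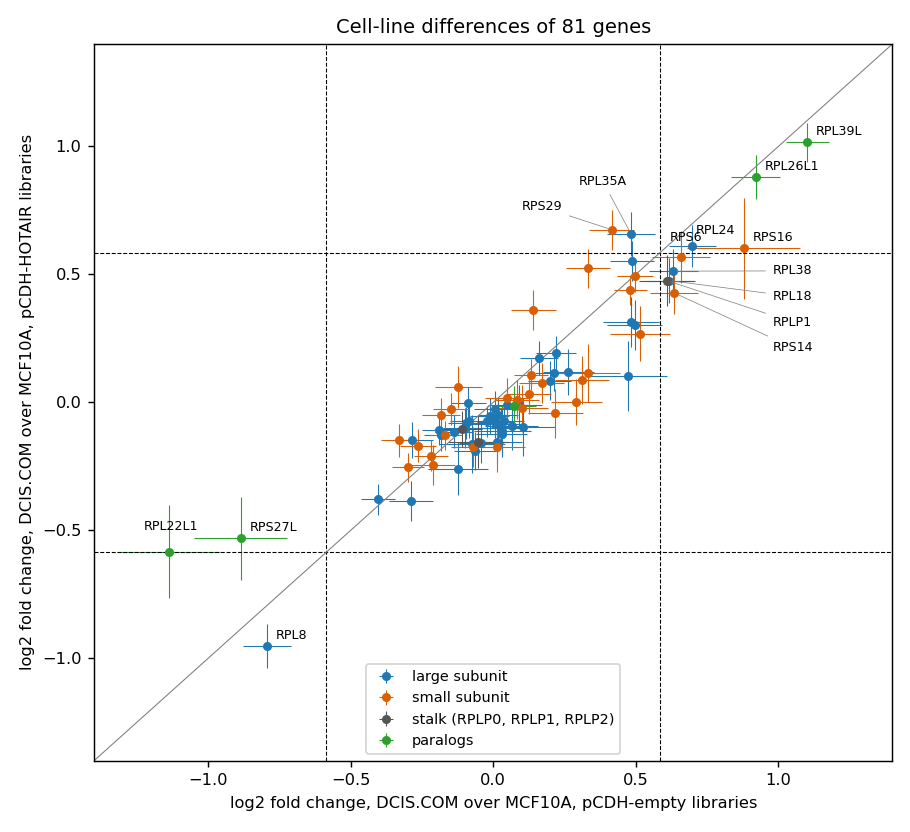
Log2 fold change of DCIS.COM over MCF10A for 81 of the 82 genes in the pCDH-empty libraries (horizontal axis) and in the pCDH-HOTAIR libraries (vertical axis), with standard errors as bars, a 1.5-fold change as dashed lines and equality as the diagonal. Names are given for the plotted genes called in either comparison: RPL39L and RPL26L1 lie at the upper right, RPL8, RPS27L and RPL22L1 at the lower left, and most genes lie near 0.

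The canonical genes that were higher in DCIS.COM belonged to both subunits. RPL24, a large-subunit protein at the interface between the subunits, had log2 CPM values of 8.66, 8.60, 8.71 and 8.70 in the MCF10A libraries and of 9.44, 9.21, 9.31 and 9.32 in the DCIS.COM libraries (pCDH-empty 1 and 2, then pCDH-HOTAIR 1 and 2, the order used from here on). Every DCIS.COM library lay above every MCF10A library, and the difference was 0.70 ± 0.08 (SE, limma adjusted p = 0.000111) with pCDH-empty and 0.61 ± 0.08 (adjusted p = 0.000256) with pCDH-HOTAIR. RPS16 had 8.00, 8.24, 8.41 and 8.40 in MCF10A and 9.33, 8.67, 9.15 and 8.87 in DCIS.COM. The lines did not overlap, but the DCIS.COM replicates were the farthest apart of any member, and the differences were 0.88 ± 0.20 (adjusted p = 0.00451, limma) and 0.60 ± 0.20 (adjusted p = 0.0268). For RPS6, the small-subunit protein that S6 kinase phosphorylates, the values were 10.34, 10.18, 10.25 and 10.22 against 11.05, 10.78, 10.79 and 10.81. It was higher in all DCIS.COM libraries, by 0.66 ± 0.10 (adjusted p = 0.000595, limma) and 0.57 ± 0.10, the second just under the fold threshold. RPS14 (0.64), RPL38 (0.63), RPL18 (0.62) and the stalk gene RPLP1 (0.61) were also called in the pCDH-empty libraries, and in the pCDH-HOTAIR libraries they differed by 0.43 to 0.51 and were not past the fold threshold. The pCDH-HOTAIR call of RPS16 was lost when MCF10A pCDH-HOTAIR 1, MCF10A pCDH-HOTAIR 2 or DCIS.COM pCDH-HOTAIR 1 was left out, with adjusted p-values (limma) of 0.1, 0.104 and 0.158. RPS29 (0.67) and RPL35A (0.66) were called with pCDH-HOTAIR and not with pCDH-empty, where they had 0.42 and 0.48. None of these genes passed the interaction test.

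RPL8 was the canonical gene that was lower in DCIS.COM in both vectors. RPL8, a protein close to the catalytic centre of the large subunit, had log2 CPM values of 10.57, 10.61, 10.70 and 10.72 in MCF10A and of 9.90, 9.69, 9.77 and 9.75 in DCIS.COM. All DCIS.COM libraries lay below all MCF10A libraries, by 0.79 ± 0.08 on the log2 scale (a log2 fold change of -0.79, limma adjusted p = 6.46e-05) with pCDH-empty and by 0.95 (-0.95 ± 0.08, adjusted p = 2.28e-05) with pCDH-HOTAIR. Several genes that are often used as references or that have roles outside the ribosome differed little in the pCDH-empty libraries. RPLP0, a common reference gene, had -0.05 ± 0.10 and RPSA, also known as the laminin receptor, 0.10 ± 0.09. RPL5 and RPL11, which with 5S RNA bind MDM2, had -0.14 ± 0.07 and -0.06 ± 0.07. With all libraries kept, none of these 4 passed an adjusted p of 0.05 there (limma). RPL11 alone of them did in the pCDH-HOTAIR libraries (-0.19 ± 0.07, limma adjusted p = 0.0483). Without DCIS.COM pCDH-empty 1, the pCDH-empty differences were -0.20 for RPLP0, -0.13 for RPL11, -0.10 for RPL5 and -0.025 for RPSA.

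Several of the calls rested on DCIS.COM pCDH-empty 1. Without this library, 7 members were called in the pCDH-empty libraries, against 44.5% of all genes. Of the 13 calls, 5 stayed (RPL24, RPL8, RPL22L1, RPL26L1 and RPL39L), while the other 8, among them RPL18, RPL38, RPLP1, RPS6, RPS14, RPS16 and RPS27L, no longer passed and RPL22 and RPL35A joined. RPS16 then had a log2 fold change of 0.55 and RPS27L of -0.58, and the median of all members was -0.03. Without DCIS.COM pCDH-empty 2, 17 members were called, the 13 included, and the median was 0.14. Correction for GC content left 8 of the 13 calls, with RPL18, RPL38, RPLP1 and RPS14 among those lost, and correction for transcript length left 8, with RPL18, RPL24, RPL38 and RPLP1 among those lost. With pCDH-HOTAIR the length correction left 3 of the 7 calls (RPL8, RPL26L1 and RPL39L), removed those of RPL24, RPL35A, RPS16 and RPS29 and added RPL22L1 and RPS27L. The GC correction and limma without the trend also removed RPS16 there.

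In the pCDH-empty libraries 4 of the 5 paralogs were called between the lines (46.3% of all genes were). With pCDH-HOTAIR 2 of the 5 were called (43.7% of all genes). RPL22L1 and its partner differed in opposite directions. RPL22L1 (chr3:170582664-170587997 on GRCh37) had log2 CPM values of 8.03, 7.91, 7.99 and 7.73 in MCF10A and of 6.52, 7.14, 7.29 and 7.26 in DCIS.COM. Every DCIS.COM library was lower, by -1.14 ± 0.18 (SE, adjusted p = 0.000677, limma) with pCDH-empty and by -0.58 ± 0.18 (adjusted p = 0.0211) with pCDH-HOTAIR, just short of the fold threshold. RPL22 (chr1:6245080-6269449), which encodes the canonical protein, had 7.69, 7.69, 7.73 and 7.68 in MCF10A and 8.08, 8.28, 8.29 and 8.23 in DCIS.COM. It was higher in every DCIS.COM library, by 0.49 ± 0.08 (adjusted p = 0.000687, limma) and 0.55 ± 0.08 (adjusted p = 0.000345), below the fold threshold in both. Per kilobase, RPL22L1 held 58.9% ± 1.3 (SD, n = 2) of the pair in MCF10A pCDH-empty and 56.7% ± 2.5 in MCF10A pCDH-HOTAIR. In DCIS.COM it held 31.8% ± 4.4 and 37.4% ± 0.4, so that the more abundant transcript of the pair was RPL22L1 in all MCF10A libraries and RPL22 in all DCIS.COM libraries. Without DCIS.COM pCDH-empty 1, the difference of RPL22L1 with pCDH-empty was -0.83 and it was still called.

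RPS27L, a p53-inducible paralog, was also lower in DCIS.COM while RPS27 was higher. The values of RPS27L (chr15:63418071-63450220) were 7.61, 7.60, 7.57 and 7.58 in MCF10A and 6.42, 7.02, 7.01 and 7.08 in DCIS.COM. Both lines were tight apart from the low DCIS.COM pCDH-empty 1, and the differences were -0.89 ± 0.16 (adjusted p = 0.00153, limma) and -0.53 ± 0.16 (adjusted p = 0.0201). RPS27 (chr1:153963238-153964631) had 9.02, 9.002, 9.09 and 9.11 in MCF10A and 9.51, 9.48, 9.55 and 9.53 in DCIS.COM, a difference of 0.48 ± 0.06 and 0.44 ± 0.06 without overlap. The paralog thus held 14.1% and 13.2% of the pair per kilobase in the MCF10A groups and 6.11% and 7.18% in the DCIS.COM groups.

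RPL39L and RPL26L1 were higher in DCIS.COM while their partner genes did not pass the test with all libraries kept. RPL39L (chr3:186838736-186898696), a paralog known for its high expression in testis, had log2 CPM values of 3.87, 3.92, 3.88 and 3.91 in MCF10A and of 5.01, 4.98, 4.92 and 4.89 in DCIS.COM. The replicates lay close together, and the difference was 1.10 ± 0.08 (adjusted p = 4.66e-06, limma) and 1.02 ± 0.08 (adjusted p = 7.67e-06). RPL26L1 (chr5:172385732-172396774) had 4.32, 4.18, 4.22 and 4.28 against 5.12, 5.22, 5.10 and 5.17, higher by 0.92 ± 0.09 (adjusted p = 2.93e-05, limma) and 0.88 ± 0.09 (adjusted p = 3.95e-05) with no overlap. RPL39 differed by -0.09 and -0.0030 and RPL26 by 0.03 and -0.11, none of which passed the test with all libraries kept. Without DCIS.COM pCDH-empty 1, the pCDH-empty differences were -0.14 for RPL39 and -0.13 for RPL26. Because both paralogs are far less abundant than their partners, RPL39L rose from 1.83% to 4.07% of its pair per kilobase in the pCDH-empty libraries and RPL26L1 from 2.83% to 5.16%. RPL7L1 held 2.61% to 3.02% of its pair with RPL7 in the 4 groups, and neither gene passed the test between the lines. RPL36AL, outside the rule, held 38.7% of its pair with RPL36A in MCF10A pCDH-empty and 42.7% in DCIS.COM pCDH-empty.

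**Figure D4:**
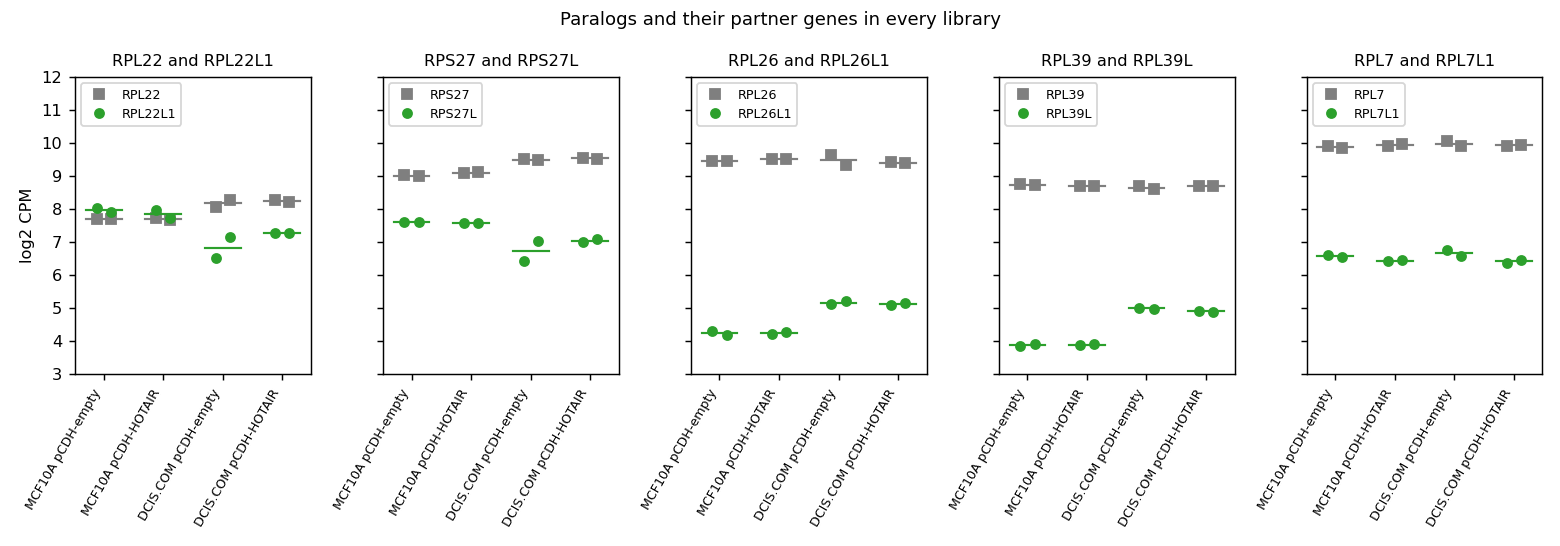
Log2 CPM (vertical axis) of 5 paralogs (green circles) and their partner genes (grey squares) in the 2 libraries of each group (horizontal axis), with the group mean as a line. RPL22L1 lies above RPL22 in MCF10A and below it in DCIS.COM, RPS27L falls while RPS27 rises, RPL26L1 and RPL39L rise, and RPL7L1 stays between 6.37 and 6.75.

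The line differences of the members were compared with those of the genes around them on the chromosome. For each member the median log2 fold change (DCIS.COM over MCF10A, pCDH-empty) of the other table genes within 5 Mb was taken, over 11 to 215 genes. Over the 82 members the Spearman correlation between a gene and its surroundings was 0.64 (0.70 over the 77 genes that are no paralogs), and over 13060 genes of the table it was 0.26. Without DCIS.COM pCDH-empty 1 these were 0.63, 0.69 and 0.24. The points are not independent, since close members share neighbours and all share the same libraries. RPL8, at -0.79, lay among 77 genes on chromosome 8 with a median of -0.70. RPL22, at 0.49, lay among 93 genes on chromosome 1 with a median of 1.01. RPS6 (0.66) had a median of 0.60 over 17 genes, RPL38 (0.63) of 0.61 over 91 genes and RPS16 (0.88) of 0.55 over 180 genes. The 8 canonical genes called higher had surroundings from 0.01 (RPL24) to 0.61 (RPL38), with RPLP1 at 0.17. These 8 were picked by their difference in the same comparison. RPL22L1 and RPS27L went against their surroundings: at -1.14 and -0.89 they lay among genes with medians of 0.32 over 22 genes and 0.24 over 64 genes. On chromosome 19, which carries 12 members, the members had a median of 0.39 and all 910 genes of the chromosome one of 0.18. The part of the surroundings in these differences was not tested.

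Other genes of the translation machinery were set beside the members, by the same test. None of the genes in these lists was called in either HOTAIR comparison (limma), although 22 of 43 ribosome biogenesis genes (51.2%) had an unadjusted p under 0.05 in DCIS.COM, where 17.5% of all genes did, with a median of -0.19. Without DCIS.COM pCDH-empty 1 these were 22 genes, 15.1% of all genes and a median of -0.14. Among 78 mitochondrial ribosomal protein genes, 24 were higher and 1 lower in DCIS.COM in the pCDH-empty libraries (22.5% and 23.8% of all genes) and 22 and 2 in the pCDH-HOTAIR libraries, with medians of 0.34 and 0.27. Their share of reads was 0.298% to 0.308% in MCF10A and 0.384% to 0.411% in DCIS.COM. MRPL20 (1.45 ± 0.12) and MRPL24 (1.31 ± 0.07) were highest, and MRPS21 (-0.68 ± 0.08) was the lower one. Without DCIS.COM pCDH-empty 1, 22 of the 78 were called higher and the median was 0.26. Of the cytoplasmic members 12.2% were called higher in the pCDH-empty libraries, and the contrast with the mitochondrial genes was not tested.

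The counts in this paragraph stand beside 46.3% of all genes called with pCDH-empty (22.5% higher and 23.8% lower). With pCDH-HOTAIR 43.7% of all genes were called (22% higher and 21.7% lower). A further list held 20 genes of translation factors and other proteins whose transcripts are also of the TOP class. Of these, 2 were higher (NPM1, the nucleolar chaperone, 0.98 ± 0.07, and RACK1, a protein of the small-subunit head, 0.65 ± 0.09) and 2 lower (EEF1D, -0.75 ± 0.06, and TPT1, -0.62 ± 0.07) in the pCDH-empty libraries. Ribosome biogenesis genes were called in both directions, 6 higher and 5 lower of 43, led by NOC2L (1.58) and the rRNA methyltransferase gene FBL (1.29) and by GAR1 (-1.21) and SBDS (-1.12). GAR1 had 82 and 217 reads in the DCIS.COM pCDH-empty libraries, the first being the library that stood apart, and its difference with pCDH-HOTAIR was -0.28 ± 0.41. Without that library it had -0.44 and was not called, and 4 biogenesis genes were called higher and 2 lower. Of 20 regulators of ribosomal protein synthesis, 6 were higher and 3 lower. MYCN had 0 reads in all 4 MCF10A libraries and 135 to 280 reads in the DCIS.COM libraries, and the mTOR-binding inhibitor DEPTOR had 11 to 16 reads against 694 to 1096. MDM2 (-0.90 ± 0.10) and MYC (-0.88 ± 0.11) were lower. Without DCIS.COM pCDH-empty 1, RACK1 (0.53) was not called, and 5 regulators were higher and 3 lower. No snoRNA host gene of 12 was called with pCDH-empty (2 had an unadjusted p under 0.05, limma), and GAS5 was called with pCDH-HOTAIR (0.79 ± 0.11) and, once DCIS.COM pCDH-empty 1 was left out, with pCDH-empty (0.67). Of the 13 pseudogene symbols of ribosomal proteins in the table, 1 was called higher with pCDH-empty, RPL13AP20 (0.62 ± 0.19), which had 913 and 509 reads in the DCIS.COM pCDH-empty libraries. Without the first of these it differed by 0.29 and was not called, while RPSAP52 (-1.21) was. It differed by 0.22 with pCDH-HOTAIR, where RPSAP52 (-1.60) and RPL23AP82 (-0.77) were called lower. FAU and RPL36AL did not pass the thresholds in any comparison.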

How the data were processed

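RNA-seq values of the 8 libraries (MCF10A and DCIS.COM, pCDH-empty and pCDH-HOTAIR, 2 each) were used. The authors aligned reads to hg19 with Rsubread, counted genes with featureCounts and deposited log2 CPM values normalized with edgeR. How multiply mapped reads and strand were handled is not given in the sources used here. From the deposited log2 values, whole reads were recovered from the equal steps above a shared prior of 0.0717 CPM (100% of values within 0.01 of a whole number). Totals were 19306864 to 34884841 reads per library, and intervals cover the spread between libraries.

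Groups followed the labels. Differences were tested with limma 3.58.1 in R 4.3.3 on the log2 values of all 13771 genes (4 group means, eBayes with trend, Benjamini-Hochberg over all genes), with calls made at an adjusted p below 0.05 together with a 1.5-fold change (for the interaction, at any fold). The method was tested on simulated data with the same spread in all groups and with planted changes above 1.5-fold only. The wider spread of DCIS.COM pCDH-empty and smaller changes were not covered by it. The members, gene lists and the rule for named genes were chosen with earlier results of these data known. Named were called members, members with the smallest p or the most extreme effect under HOTAIR, paralog pairs, the stalk genes, RPSA, RPL5, RPL11 and RPS6, the ends of the level order, and the leading called genes of other lists. Positions, transcript lengths (median over basic coding transcripts), GC content and pseudogenes came from GENCODE 44 on GRCh37 (95.5% of genes), starts from RefSeq on GRCh38. Summaries were made in Python 3.11.15 with pandas 2.3.3, numpy 2.4.6, and for correlations scipy 1.17.1. The alternatives were other pseudocounts, filters, scalings, GC and length correction, limma-voom with the library sizes embedded in the deposited values in place of TMM factors, thinning, other thresholds, a replicate block and each library left out. All were chosen with earlier results known. The single values of 1 member, which is included in all counts, medians and shares, are not reported here.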

Additional observations from a re-analysis of the deposited data

How the results depend on the processing

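The counts of 0 under HOTAIR in MCF10A held under every setting tried. In DCIS.COM the count stayed at 0 under every setting that kept all libraries and was 0 to 2 with a library left out. The interaction count was 0 to 43 with a library left out, the 43 without DCIS.COM pCDH-empty 2. The line difference with pCDH-empty gave 13 calls and 8 after loess correction on gene length, 8 after correction on GC content, 42 with no fold threshold, 0 at a log2 fold change of at least 1.5, and 7 to 17 with a library left out. With pCDH-HOTAIR it gave 7 calls, 5 after length correction (3 shared with the 7), 7 after GC correction (6 shared), 6 without the trend, 8 after median centring or thinning, 10 after quantile normalization, 10 without small structural RNA, 30 with no fold threshold, 0 at a log2 fold change of at least 1.5, and 6 to 8 with a library left out.

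The median log2 fold change of the members ranged with a library left out from -0.0901 to 0.0603 for HOTAIR in DCIS.COM, from -0.156 to 0.0017 for the interaction and from -0.029 to 0.143 for the lines with pCDH-empty. It was -0.0067 for the interaction after quantile normalization. For the lines it was -0.031 (pCDH-empty) and -0.152 (pCDH-HOTAIR) after length correction, and 0.036 with pCDH-HOTAIR when small structural RNA was left out, so that the members as a list had no stable direction between the lines. The mean share of reads, 5.84%, was 7.06% without the small structural RNA genes in the total and 5.81% to 5.90% with a library left out. The share with genes outside the rule added is not reported here.

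Of the values of named genes, 30 changed sign, all of genes near 0 that were not called between the lines. With pCDH-empty these were RPL26 (-0.062) and RPL36A (-0.089) after length correction and RPL36A (-0.0017) after quantile normalization. With pCDH-HOTAIR they were RPL36A (0.036), RPL39 (0.0596), RPL7 (0.051), RPL7L1 (0.048) and RPSA (0.039) without small structural RNA, RPL39 (0.017), RPL7 (0.0084) and RPL7L1 (0.00535) after median centring, RPL7 (0.044), RPL7L1 (0.026) and RPSA (0.076) after quantile normalization, RPL7L1 (0.014) after length correction and RPL39 (0.0013) after thinning. With a library left out, the pCDH-empty values ran from -0.134 to 0.0047 for RPL11, -0.130 to 0.194 for RPL26, -0.070 to 0.080 for RPL36A, -0.012 to 0.160 for RPL7L1, -0.204 to 0.098 for RPLP0 and -0.025 to 0.224 for RPSA, and the pCDH-HOTAIR values from -0.059 to 0.0063 for RPL36A, -0.0072 to 0.0013 for RPL39, -0.051 to 0.028 for RPL7, -0.065 to 0.036 for RPL7L1 and -0.053 to 0.0056 for RPSA. Another 29 values of named genes no longer passed the threshold and 14 came to pass it, and 1184 kept both direction and side. The causes were not tested. The replicate numbers did not pair the libraries (correlations of deviations of -0.016 to 0.066), and the replicate block left 13 and 7 calls between the lines and 0 under HOTAIR. The roles and other gene lists without DCIS.COM pCDH-empty 1 were added after seeing the data. A library left out leaves 1 library in its group, which is assumed to vary like the others, and 2 libraries a group limit every estimate of spread.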
